A study of Mus musculus with 32 samples.

Results

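Interferon-stimulated genes are the genes that a cell switches on when interferon binds its receptors. The list examined here held 43 such genes, named by symbol as genes of the pathway. It was chosen with earlier results of these data known, so counts of its genes may not be independent of these samples. All 43 symbols were found among the 22337 genes of the deposited mLEC table. They were joined by gene identifier to the table of HPC and meninges, which gives 38 of them the same symbol and names Phf11d as Phf11, Slfn2 as SLFN12L, Gbp3 and Gbp7 as Gbp4 and Igtp as Irgm1; the former symbols are used throughout. RNA-seq was performed on 32 samples, each from 1 male mouse 6 months of age on a C57BL/6J background. Hippocampus (HPC) came from 4 wild-type (WT) mice, 4 untreated 5xFAD mice and 4 5xFAD mice given light, and whole meninges and sorted meningeal lymphatic endothelial cells (mLECs) each came from 4 WT mice and 3 mice of each 5xFAD group. 5xFAD mice carry mutated human transgenes of familial Alzheimer's disease under the neuronal Thy1 promoter, and WT mice were littermates without the transgenes. The light-treated mice had repeated short sessions of near-infrared light through the skull under anaesthesia over several weeks. The study states that its control mice went through the same procedure, with anaesthesia and a shaved scalp, under indoor lighting in place of near-infrared light. Untreated here means without near-infrared light. The mLECs were sorted by flow cytometry as living cells that were CD45-, CD31+ and PDPN+. The comparisons ask how the interferon-stimulated genes differed between untreated 5xFAD and WT mice, and between 5xFAD mice with and without light, in each tissue.

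Type I interferons bind the receptor formed by Ifnar1 and Ifnar2, which activates Jak kinases and assembles a complex with Stat2 and Irf9 that binds the interferon-stimulated response element (ISRE) in promoters. Interferon gamma acts through Ifngr1 and Ifngr2, and promoters of its target genes hold the gamma-activated site (GAS). The induced genes encode sensors of foreign nucleic acid, proteins that block viral RNA and protein synthesis, GTPases that attack vacuoles of pathogens, and factors such as Irf7 and Usp18 that strengthen or restrain the response. In brain, microglia are a known source of these transcripts.

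The promoter of many of the listed genes holds the ISRE letters on one strand or the other, searched here as GAAA, any 2 bases and GAAA again. RefSeq promoter windows on GRCm38.p6, which run from 250 bases before to 50 bases after a transcription start, were at hand for 34 of the 43 genes and not for Ifi27l2a, Usp18, Rtp4, Dhx58, Zbp1, Parp14, Parp9, Mx1 and Ifi204. The ISRE letters were in the windows of 18 of the 34 (52.9%), against 1079 of the 27025 mouse genes with a window (3.99%). The GAS letters TTCNNNGAA were in 7 of the 34 (20.6%), against 9.55% of all genes. Both searches covered both strands, ISRE matches may overlap, and a match is a description of the letters and not of binding. The 250 bases before the start are shown for 5 genes, those with the smallest p in HPC between untreated 5xFAD and WT mice among genes with a single window and an ISRE before the start, and for Stat2, a holder that did not pass that test. Capitals mark the ISRE letters, which read TTTC, any 2 bases and TTTC where they lie on the other strand. The windows are those of Ifit3 at chr19:34583279-34583528 (+ strand), Ifit1 at chr19:34640639-34640888 (+), Igtp at chr11:58199306-58199555 (+), Gbp7 at chr3:142530086-142530335 (+), Bst2 at chr8:71537473-71537722 (- strand) and Stat2 at chr10:128270248-128270497 (+).
Ifit3: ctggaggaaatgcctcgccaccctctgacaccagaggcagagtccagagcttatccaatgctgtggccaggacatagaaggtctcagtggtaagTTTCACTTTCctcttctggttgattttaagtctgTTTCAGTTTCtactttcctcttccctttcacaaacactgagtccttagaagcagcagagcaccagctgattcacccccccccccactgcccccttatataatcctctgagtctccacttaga
Ifit1: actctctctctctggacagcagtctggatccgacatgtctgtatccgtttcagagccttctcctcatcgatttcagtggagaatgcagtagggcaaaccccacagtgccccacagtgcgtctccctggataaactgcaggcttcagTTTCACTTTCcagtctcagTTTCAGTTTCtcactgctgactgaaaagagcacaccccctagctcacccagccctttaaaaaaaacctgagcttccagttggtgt
Igtp: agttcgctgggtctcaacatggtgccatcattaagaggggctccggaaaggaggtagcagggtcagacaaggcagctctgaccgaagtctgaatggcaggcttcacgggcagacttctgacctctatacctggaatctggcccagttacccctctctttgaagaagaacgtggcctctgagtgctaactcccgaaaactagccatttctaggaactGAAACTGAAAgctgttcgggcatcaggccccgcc
Gbp7: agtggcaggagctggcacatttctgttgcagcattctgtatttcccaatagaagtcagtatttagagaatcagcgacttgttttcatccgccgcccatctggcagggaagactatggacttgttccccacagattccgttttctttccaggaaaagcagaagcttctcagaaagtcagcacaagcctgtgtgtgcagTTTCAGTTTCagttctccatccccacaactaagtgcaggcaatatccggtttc
Bst2: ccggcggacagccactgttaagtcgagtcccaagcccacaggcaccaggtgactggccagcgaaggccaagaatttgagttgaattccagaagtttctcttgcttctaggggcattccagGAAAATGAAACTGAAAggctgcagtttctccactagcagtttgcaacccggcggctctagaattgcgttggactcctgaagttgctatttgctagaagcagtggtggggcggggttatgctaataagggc
Stat2: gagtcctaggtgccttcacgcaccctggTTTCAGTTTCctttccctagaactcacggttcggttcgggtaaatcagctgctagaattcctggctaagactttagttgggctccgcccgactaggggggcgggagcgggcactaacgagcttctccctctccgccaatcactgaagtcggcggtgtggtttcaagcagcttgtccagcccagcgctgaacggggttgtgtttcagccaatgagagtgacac
Ifit3, Ifit1 and Bst2 each hold 2 matches, which overlap in Bst2, and the other genes hold 1. The match lies 34 to 25 bases before the start in Igtp and 222 to 213 bases before it in Stat2, so the genes differ in where the letters sit.

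Some of the listed genes lie near each other on the chromosomes. In GENCODE positions on GRCm38, 16 of the 43 had another listed gene within 100 kb: Gbp2, Gbp3 and Gbp7 on chromosome 3, Oasl1 and Oasl2 on chromosome 5, Slfn2, Slfn5 and Slfn8 on chromosome 11, Rsad2 and Cmpk2 on chromosome 12, Parp9, Parp14 and Dtx3l on chromosome 16, and Ifit1, Ifit2 and Ifit3 on chromosome 19. Exons of Dtx3l and Parp9 overlap on opposite strands, as do those of Irf7 and Phrf1, and the libraries do not mark strand, so reads from the shared bases cannot be told apart. Igtp shares exon bases with Irgm2, and Irf9 with Rnf31, on the same strand. Values of Ifit3 and its near copy Ifit3b, and of other close family members, depend on how multi-mapping reads were split and are uncertain to that extent.

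The libraries of HPC held 13952825 to 23856476 counts, those of meninges 6601143 to 14708202 and those of mLECs 14231415 to 24207326, and in mLECs between 5998 and 9020 genes had a count above 0. Levels are given as FPKM, fragments counted relative to transcript length and library size, and differences as log2 fold changes ± SE from edgeR's quasi-likelihood test on the counts, with p adjusted over all genes tested in the tissue and a threshold of 0.05. The test took every gene that reached 1 FPKM in 3 or more samples of a tissue, which covered 37 of the 43 listed genes in HPC, all 43 in meninges and 40 in mLECs. Thy1, whose promoter drives the transgenes, was higher in untreated 5xFAD than in WT HPC by 1.52 on the log2 scale.

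In HPC, nearly every interferon-stimulated gene was higher in untreated 5xFAD than in WT mice, and none was lower. A total of 17 of the 43 reached 1 FPKM in 3 or more WT samples, so their place among the tested genes did not depend on the 5xFAD mice. Of these 17, 15 were higher past the threshold, against 4.82% of the 12042 genes chosen the same way, and their median log2 fold change was 2.12, against 0 for those genes. The other 2, Stat2 and Cmpk2, did not pass. The remaining 20 tested genes reached the filter only through 5xFAD samples, so a difference was built into their selection and their count is not support: 35 of all 37 were higher, against 6.48% of 12981 genes, and 0 were lower, against 2.06%. DESeq2 called 36 higher, against 8.3%. With no filter on low values, 41 of the 43 were higher, against 4.46% of 20378 genes. These are whole tissue samples, in which more cells of a type and more RNA per cell cannot be told apart.

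Among genes of interferon signalling, Usp18, the protease that removes Isg15 from proteins and restrains the type I receptor, had FPKM of 0.56, 0.74, 0.53 and 0.43 in the 4 WT mice, 7.38, 6.44, 6.26 and 4.97 in the untreated 5xFAD mice and 2.33, 2.45, 5.01 and 3.06 in the light-treated mice. Every 5xFAD sample lay above every WT sample, and the lowest untreated value lay just under the highest light-treated one. The increase in untreated 5xFAD over WT mice was 3.48 ± 0.30 on the log2 scale (edgeR, adjusted p = 2.37e-05). Irf7, the transcription factor that amplifies interferon production, rose by 3.52 ± 0.40, and Irf9, the DNA-binding partner of Stat2, by 2.12 ± 0.24. Stat2 itself had FPKM of 3.60, 3.52, 2.76 and 3.54 in WT mice and 4.27, 4.39, 4.03 and 4.93 in untreated 5xFAD mice. Its groups did not overlap, yet its difference of 0.40 ± 0.13 missed the threshold (edgeR, adjusted p = 0.0671), and it passed in DESeq2 (adjusted p = 0.0316).

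The antiviral effectors include the Ifit genes, whose proteins bind foreign RNA and block its translation. Ifit3 (ENSMUSG00000074896) had FPKM of 4.56, 5.37, 4.81 and 5.72 in WT mice, 35.7, 27.8, 36.1 and 40.3 in untreated 5xFAD mice and 15.7, 16, 28.6 and 21.7 in light-treated mice. The 3 groups stood in the order WT, light-treated, untreated, and a single light-treated mouse, number 3, reached above the lowest untreated mouse. Ifit3 was higher in untreated 5xFAD than in WT mice by 2.78 ± 0.20 on the log2 scale, with the smallest adjusted p of the listed genes (edgeR, 1.19e-05). Ifit1 (ENSMUSG00000034459) had FPKM of 0.79, 0.81, 0.63 and 0.48 in WT mice, 4.94, 4.21, 6.64 and 3.74 in untreated mice and 1.60, 2.38, 3.28 and 2.19 in light-treated mice. None of the 3 groups overlapped for Ifit1, and untreated 5xFAD exceeded WT mice by 2.86 ± 0.27. Oasl2, a relative of the oligoadenylate synthetases that sense double-stranded RNA, had FPKM of 0.42, 0.76, 0.81 and 0.87 in WT mice, 11.8, 4.44, 6.00 and 12.9 in untreated mice and 6.90, 3.99, 8.94 and 5.52 in light-treated mice. The 5xFAD groups overlapped for Oasl2 and both lay above WT, with an untreated difference from WT of 3.37 ± 0.32. Cmpk2, a mitochondrial nucleotide kinase, was the exception among the effectors, with FPKM of 8, 7.91, 6.78 and 8.2 in WT mice and 6.06, 8.72, 8.69 and 9.71 in untreated mice. These ranges overlapped fully, although the neighbouring Rsad2, which encodes the antiviral enzyme viperin, rose by 2.76 ± 0.42.

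Of the sensors of nucleic acid, Ifi204, a member of the family that detects DNA, had FPKM of 0.05, 0, 0.13 and 0.05 in WT mice, 2.62, 1.60, 2.37 and 2.00 in untreated mice and 1.52, 0.62, 1.99 and 1.57 in light-treated mice. WT samples were at or near 0 and no 5xFAD sample was, so its fitted log2 fold change of 5.32 ± 0.55 (edgeR, adjusted p = 5.96e-05) depends on the prior count and is no bound. Zbp1, which senses left-handed nucleic acid, was likewise near 0 in WT mice, at 0 to 0.24, and at 1.13 to 5.18 in untreated 5xFAD mice. The RNA helicases Ddx58 (RIG-I), Ifih1 and Dhx58 and the RNA-dependent kinase Eif2ak2 rose by less, between 1.15 and 1.83 on the log2 scale.

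The interferon-inducible GTPases all rose. Igtp had FPKM of 1.60, 1.12, 1.19 and 1.46 in WT mice, 8.32, 5.57, 6.22 and 5.52 in untreated mice and 7.24, 4.91, 5.59 and 4.14 in light-treated mice. Gbp7, a guanylate-binding protein, had FPKM of 1.21, 1.64, 0.88 and 1.37 in WT mice, 3.64, 2.94, 2.64 and 3.70 in untreated mice and 3.03, 2.66, 2.99 and 2.66 in light-treated mice. For both genes every 5xFAD sample lay above every WT sample and the treated and untreated ranges overlapped. The differences between untreated 5xFAD and WT mice were 2.26 ± 0.22 for Igtp (edgeR, adjusted p = 4.50e-05) and 1.46 ± 0.15 for Gbp7 (edgeR, adjusted p = 5.96e-05). Gbp2, Gbp3 and Irgm1 rose by 2.37, 2.45 and 1.59.

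Proteins of the membrane and the secreted proteins included the listed gene with the highest level. Ifitm3, which blocks entry of viruses through endosomes, had FPKM of 16.5, 20.7, 20.3 and 12.4 in WT mice, 155, 70.5, 93.8 and 110 in untreated mice and 64.8, 41.2, 78.2 and 74.8 in light-treated mice. Lgals3bp, a secreted glycoprotein that binds galectins, had FPKM of 10.4, 13.4, 7.93 and 9.12 in WT mice, 72.6, 42.2, 53.6 and 68.8 in untreated mice and 44.8, 34.9, 49.9 and 48.9 in light-treated mice. Bst2, the tetherin that holds budding virus on the cell surface, had FPKM of 5.47, 7.83, 2.61 and 5.22 in WT mice, 42.6, 26.2, 30.9 and 33.1 in untreated mice and 24.9, 14.1, 30.1 and 25.3 in light-treated mice. In all 3 genes untreated mouse 1 was the highest and untreated mouse 2 the lowest of its group, and light-treated mouse 2 was the lowest of the 5xFAD mice. Untreated 5xFAD exceeded WT mice by 2.64 ± 0.28 for Ifitm3, 2.55 ± 0.20 for Lgals3bp and 2.66 ± 0.30 for Bst2. Ifi27l2a, a small hydrophobic membrane protein, had the largest difference of the genes expressed in WT mice, 4.34 ± 0.52, from 1.43 to 3.44 FPKM in WT and 28.9 to 55.6 in untreated 5xFAD mice.

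Of the remaining genes, Phf11d, which encodes a PHD-finger protein, had FPKM of 0.38, 0.35, 0.30 and 0.49 in WT mice, 5.88, 3.54, 4.82 and 3.51 in untreated mice and 2.45, 1.85, 2.64 and 2.65 in light-treated mice. Trim30a, a tripartite-motif protein, had FPKM of 0.42, 0.51, 0.57 and 0.41 in WT mice, 4.71, 2.23, 3.29 and 2.63 in untreated mice and 1.75, 1.25, 2.64 and 2.39 in light-treated mice. The 3 groups were separate for Phf11d, while treated and untreated ranges overlapped for Trim30a. The differences between untreated 5xFAD and WT mice were 3.48 ± 0.27 for Phf11d and 2.78 ± 0.31 for Trim30a. The other genes past the threshold, Ifit2, Isg15, Rtp4, Xaf1, Slfn2, Slfn5, Parp9, Dtx3l, Herc6, Ifi35 and Sp100, rose by 0.70 (Dtx3l) to 3.11 (Isg15, the ubiquitin-like modifier). In 36 of the 37 tested genes every untreated 5xFAD sample lay above every WT sample, against 8.75% of all tested genes, and Cmpk2 was the exception. This count carries the limit given above on the 20 genes selected through 5xFAD samples, and is a description.

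The 6 genes under the filter in HPC had low FPKM throughout. Mx1, an antiviral GTPase, was at 0.03, 0, 0 and 0 in WT mice and at 0.37, 0.56, 0.47 and 0.31 in untreated 5xFAD mice. Oasl1 was at 0 to 0.03 in WT and at 0.33 to 0.87 in untreated 5xFAD mice, and Ifi44 at 0 to 0.08 and 0.30 to 1.32. Slfn8, Parp14 and Samd9l were at up to 0.28, 0.16 and 0.95 FPKM in WT mice. All 6 passed the threshold when no filter was applied, and for Mx1, Oasl1 and Ifi44 the fitted fold change is no bound, since WT samples were near 0.

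**Figure D1:**
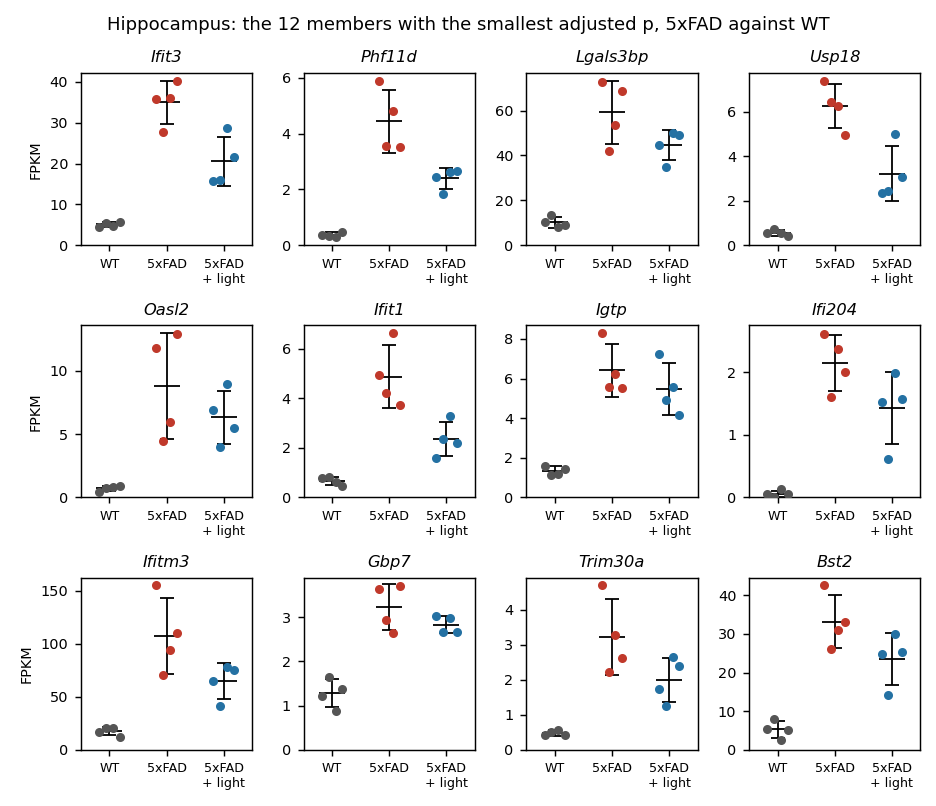
FPKM of the 12 listed genes with the smallest adjusted p between untreated 5xFAD and WT hippocampus, 1 panel a gene with its own axis from 0, where points are mice (4 a group), horizontal lines means and bars SD. Every untreated 5xFAD mouse lies above every WT mouse in all 12 panels, and in Ifit1 and Phf11d the light-treated mice lie between the other groups without overlap.

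Genes that mark microglia moved with the interferon-stimulated genes in HPC. All 12 microglial markers were higher in untreated 5xFAD than in WT mice, with summed FPKM of 593 to 659 in WT, 2044 to 3721 in untreated and 1504 to 2734 in light-treated mice, and all 12 were expressed in WT mice. Of 7 markers of plaque-associated microglia 6 were higher, but Clec7a, Cst7 and Itgax were tested only through 5xFAD samples, and of the 4 expressed in WT mice 3 were higher. Their sums were 38.9 to 58.6 in WT, 207 to 479 in untreated and 163 to 406 in light-treated mice. Leptomeningeal fibroblast markers had sums of 361 to 856 in WT, 766 to 2710 in untreated and 489 to 768 in light-treated mice. Most of each sum was Ptgds, at 336 to 820, 745 to 2669 and 482 to 755 FPKM. Of these 6 markers 3 were higher in untreated 5xFAD than in WT mice, of which Col1a1 and Col1a2 were tested only through 5xFAD samples. Lum, Dcn and Slc6a13 did not pass. Of the astrocyte markers 3 of 5 were higher, with sums of 581 to 706, 740 to 3093 and 1110 to 1513. Of 3 tested plasmacytoid dendritic cell markers 1 was higher, Siglech, which microglia also express. Markers of T and NK cells and of B cells were at a summed FPKM of at most 2.91 and 0.97 in every sample and were not tested, with Ncr1 at 0 in all samples. The part of these cell types in the differences was not tested. Untreated mice 2 and 3 had the highest level of the leptomeningeal gene Ptgds (2669 and 2594 FPKM, against 745 and 1313 in mice 1 and 4). Without them, 34 of 36 tested genes were still higher than in WT mice, an alternative chosen after the data were seen. The share of all genes in that refit is not reported here, so its count is a description.

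The rest of the pathway was read from a list of 106 further genes, of which 63 were tested in HPC. Of the 43 that reached the filter in WT mice alone, 18 were higher and 0 lower in untreated 5xFAD than in WT mice, against the 4.82% given above. The other 20 reached it only through 5xFAD samples, so the 36 of all 63 that were higher are a description and not support. Of the ligands, none of the 10 listed interferon genes was tested, since all were at 0 in WT mice and the highest sample of any group had a summed FPKM of 0.24. Ifnb1, the gene for interferon beta, was at 0.06, 0.18, 0 and 0 in untreated 5xFAD mice and at 0.24 in a single light-treated mouse. Among receptors and kinases 3 of 8 were higher, Ifnar2 by 0.63 ± 0.17, Ifngr1 by 0.90 ± 0.13 and Il10rb by 1.24 ± 0.18, while Ifnar1 differed by -0.07 ± 0.11 and Ifngr2 by -0.11 ± 0.18 and did not pass. Among transcription factors Irf5 was higher by 1.62 ± 0.24 and Irf8, a factor of the myeloid lineage, by 2.53 ± 0.30. Irf1 differed by 0.83 ± 0.24 and did not pass (edgeR, adjusted p = 0.0516).

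Among sensors and adaptors 4 of 11 were higher, namely Sting1, Tlr7, Aim2 and Trex1, by 0.93 to 1.36, and among negative regulators 2 of 5, Socs3 by 3.18 ± 0.65 and Ptpn6 by 2.29 ± 0.24. Of these 6, Tlr7, Aim2 and Socs3 were tested only through 5xFAD samples. Of 15 further interferon-stimulated genes that reached the filter in WT mice 9 were higher, and with the 17 that reached it only through 5xFAD samples, whose selection favoured a difference, the count was 24 of 32. They included the effectors and sensors Ifit3b, Oas1a, Isg20, Sp110, Sp140 and Ifi30, the GTPases Ifi47, Iigp1, Gbp6, Tgtp2 and Irgm2, the membrane proteins Ifitm1, Ifitm2 and Cd274, and the immunoproteasome genes Psmb8, Psmb9 and Psme2. The others were Trim14, Trim25, Trim34a, Parp10, Tor3a, Uba7 and Ube2l6, and the increases ran from 0.44 (Psme2) to 4.03 (Oas1a).

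Between light-treated and untreated 5xFAD mice no listed gene passed the threshold in HPC, although every one of the 37 had a lower mean with light. The count was 0 of 37 in edgeR, against 0.185% of 12981 genes lower and 0.27% higher, with 16 lower at an unadjusted p below 0.05 (against 9.81%) and 0 higher (8.54%). A lower mean with light was found in 52.9% of all tested genes. The counts over all 37 include the 20 genes selected through 5xFAD samples and are a description. Among those 20, Rsad2 reached 1 FPKM only in untreated mice, so its selection favoured a lower value with light. The median log2 fold change of the 17 genes expressed in WT mice was -0.49, with a range from -0.91 to -0.01, against -0.01 for the genes chosen the same way. DESeq2 called 5 lower, against 2.2% of all genes. These contrasts share the untreated mice with the comparison to WT, so the values of each are given on their own.

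The largest of these differences were in Ifit1, at -1.05 ± 0.25 on the log2 scale (edgeR, adjusted p = 0.0759; DESeq2, adjusted p = 0.0066), Usp18 at -0.96 ± 0.26 (0.0999 in edgeR and 0.0213 in DESeq2), Ifi27l2a at -0.91 ± 0.43 (edgeR, adjusted p = 0.276) and Phf11d at -0.90 ± 0.23 (0.0934 in edgeR and 0.0178 in DESeq2). The other genes called by DESeq2 were Ifit3 at -0.76 ± 0.19 (0.0822 in edgeR and 0.00877 in DESeq2) and Ifit2 at -0.52 ± 0.16 (0.131 in edgeR and 0.0482 in DESeq2). Every light-treated sample lay below every untreated sample in 7 genes, Ifit1, Ifit2, Phf11d, Herc6, Slfn2, Irf9 and Parp9, against 3.98% of all genes, and these were named after their values were seen. Ifit2, for example, had FPKM of 1.67, 2.20, 2.73 and 2.18 with light and 2.89, 3.01, 3.18 and 3.34 without, where WT mice had 2.02, 1.54, 1.88 and 1.52. Herc6, the ligase that attaches Isg15 in mice, was at 1.36 to 1.63 with light, 1.67 to 4.24 without and 0.65 to 1.08 in WT mice.

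Genes with the highest level in their class had light-treated means between those of WT and untreated mice. Ifitm3 differed between light-treated and untreated 5xFAD mice by -0.73 ± 0.26, Lgals3bp by -0.40 ± 0.19, Irgm1 by -0.29 ± 0.20, Igtp by -0.24 ± 0.20, Irf9 by -0.46 ± 0.23, Stat2 by -0.30 ± 0.13, Zbp1 by -0.84 ± 0.62 and Xaf1, an apoptosis-related protein, by -0.73 ± 0.26, and none passed (edgeR, adjusted p between 0.164 and 0.549). Isg15 was at 4.97, 1.98, 7.16 and 5.48 FPKM with light and 8.36, 5.03, 8.72 and 6.07 without, a difference of -0.52 ± 0.37, and Cmpk2 differed by -0.01 ± 0.13.

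The count depended on single mice. Without untreated mouse 2, Ifit3 passed, and without light-treated mouse 3, Ifit1, Ifit3 and Usp18 passed, 1 and 3 genes in all. Untreated mouse 1 was the highest of its group for 21 of the 37 genes and untreated mouse 2 the lowest for 21, and among the light-treated mice, over the 35 genes with a group mean of at least 1 FPKM, mouse 3 was the highest for 21 and mouse 2 the lowest for 23. Without the 2 untreated mice highest in Ptgds, 3 genes passed as lower with light, Ifit3, Ifitm3 and Gbp3, of 36 tested. Shares of all genes that passed in these refits are not reported here, so the counts of the refits are a description. None of the microglial markers differed with light past the threshold, with a median of -0.18, nor did the leptomeningeal markers, with a median of -1.42. Border macrophage sums were 5.84 to 15.6 FPKM without light and 2.39 to 5.60 with it (median -1.37 over 2 tested), which do not overlap, and neutrophil sums 3.05 to 7.70 and 0.21 to 3.36 (median -1.75 over 2 tested), which do, and none of these markers passed. The part of these cells in the values was not tested. None of the 63 other pathway genes passed either. Ifngr1 differed by -0.44 ± 0.13, Ifnar1 by -0.03 ± 0.11, Ifnar2 by -0.05 ± 0.16, Ifngr2 by 0.11 ± 0.18 and Irf1 by 0.10 ± 0.24.

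**Figure D2:**
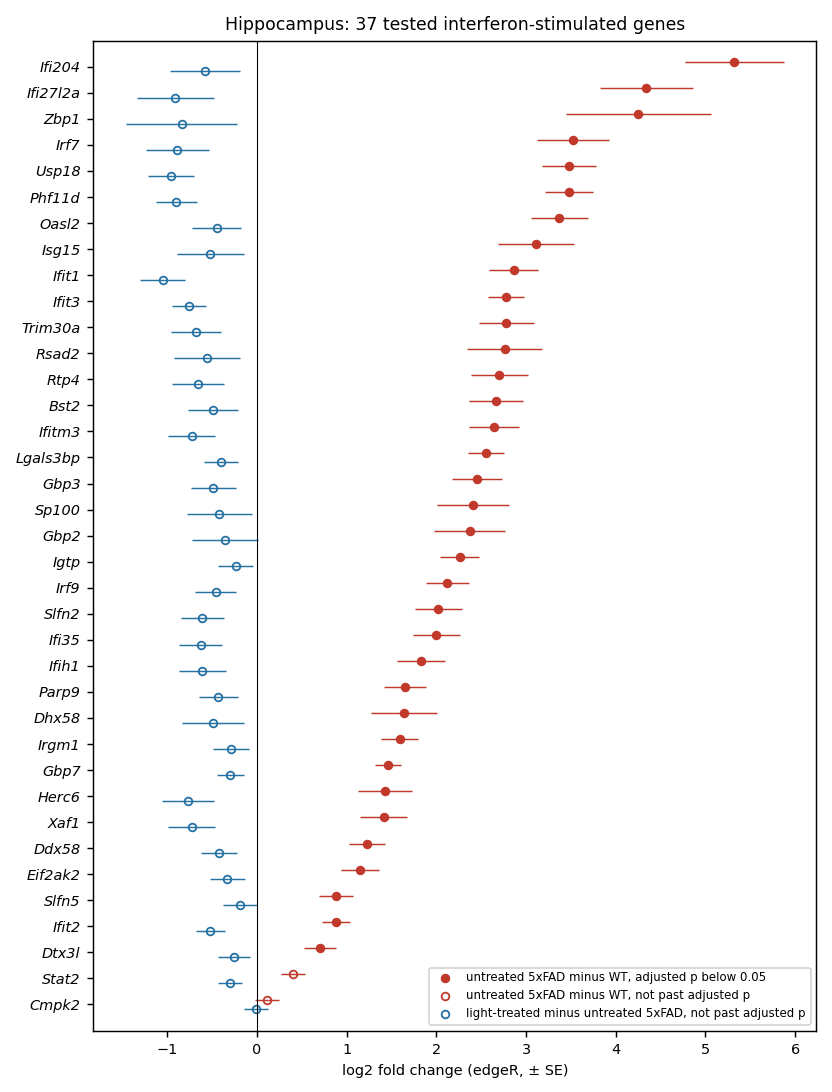
Log2 fold changes with SE of the 37 listed genes tested in hippocampus, for untreated 5xFAD minus WT and for light-treated minus untreated 5xFAD, from the edgeR fit. All 37 values are above 0 in the former and below 0 in the latter, where none passed the adjusted threshold.

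Light-treated 5xFAD mice still differed from WT mice in HPC. Of the 17 genes expressed in WT mice, 12 were higher, against 2.04% of the genes chosen the same way, with a median of 1.66 against -0.01. Of all 37 tested genes 29 were higher, against 3.05%, and 0 lower, against 0.539%, with the limit on the 20 selected through 5xFAD samples given above. With no filter 32 of the 43 were higher, against 2.14%. Ifit3 was higher by 2.02 ± 0.20 on the log2 scale (edgeR, adjusted p = 0.000111), Lgals3bp by 2.15 ± 0.20 (7.75e-05) and Oasl2 by 2.92 ± 0.31 (0.000172). The 8 genes that did not pass were Slfn5, Dhx58, Xaf1, Dtx3l, Ifit2, Herc6, Stat2 and Cmpk2, with differences from 0.10 (Cmpk2) to 1.16 (Dhx58). Every light-treated sample lay above every WT sample in 32 of the 37 genes, against 7.33% of all genes. The light-treated mean lay between the WT and the untreated mean in all 37 genes, an order found in 20.3% of tested genes. Both counts carry the same limit on the 20 genes selected through 5xFAD samples. The order of means also uses the untreated mice in both comparisons. Its share of 20.3% covers genes whatever their difference between untreated 5xFAD and WT mice, so the order is a description. Of the 43 other pathway genes expressed in WT mice 12 were higher with light than in WT mice, against the 2.04% above, among them Irf8 by 2.20 ± 0.29, and 11 of 12 microglial markers were.

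The meninges held more of these transcripts than HPC already in WT mice. In 40 of the 43 genes every WT meninges sample had a higher FPKM than every WT HPC sample, against 35.6% of the 14144 genes compared, and Cmpk2 was the single gene with every meninges sample lower (30.5%). Only 17 of the 43 reached 1 FPKM in 3 or more WT HPC samples. The others entered the comparison through WT meninges samples, so the count of 40 is a description and not support. Ifitm3 was at 442 to 901 FPKM in WT meninges and 12.4 to 20.7 in WT HPC, and Ifi27l2a at 143 to 343 and 1.43 to 3.44. Cmpk2 was at 1.51 to 2.97 and 6.78 to 8.2. Border macrophage markers had summed FPKM of 317 to 527 in WT meninges and 3.03 to 4.64 in WT HPC, and their part in these levels was not tested.

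In meninges no listed gene differed between untreated 5xFAD and WT mice past the threshold. The count was 0 of 43 in edgeR, where 0% of 14318 genes were called in either direction, and 0 in DESeq2, with 1 gene at an unadjusted p below 0.05 (against 2.12% higher). That gene was Slfn8, a Schlafen protein, at 2.30, 3.52, 2.69 and 2.10 FPKM in WT and 4.51, 4.07 and 3.85 in untreated 5xFAD mice, a difference of 0.61 ± 0.27. The log2 fold changes of the 43 genes ran from -0.39 (Bst2) to 0.62 (Oasl1), with a median of 0.06 against 0 for all genes, which was -0.07 without untreated mouse 4 and 0.23 without untreated mouse 1. Ifit3, for comparison with HPC, was at 50.1, 40.6, 22.2 and 25.2 in WT and 19.3, 29.1 and 56.7 in untreated 5xFAD mice. Untreated mouse 4 was the highest of its group for 33 of the 42 genes with a group mean of at least 1 FPKM.

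The change between untreated 5xFAD and WT mice was itself compared between meninges and HPC in a fit of all 22 samples, which tested 15132 genes. The fit took all samples as independent, although whether HPC and meninges samples shared mice was not settled. The change was smaller in meninges in 28 of the 43 genes past the threshold, against 1.67% of all genes, and larger in 0, against 0.0727%. The differences with the smallest p were in Lgals3bp, whose log2 change was 2.70 ± 0.35 smaller in meninges (-0.14 against 2.55), and in Ifi204, Oasl2, Phf11d, Bst2, Irf7, Mx1, Ifi27l2a, Ifit1, Ifit3, Ifitm3 and Isg15. The 15 genes without a call had differences from -1.99 (Gbp2) to -0.26 (Cmpk2). The number passing was 18 with limma on log2(FPKM + 1), and with a single mouse left out it was at least 19. Shares of all genes are not reported here for these alternatives, so both numbers are a description.

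**Figure D3:**
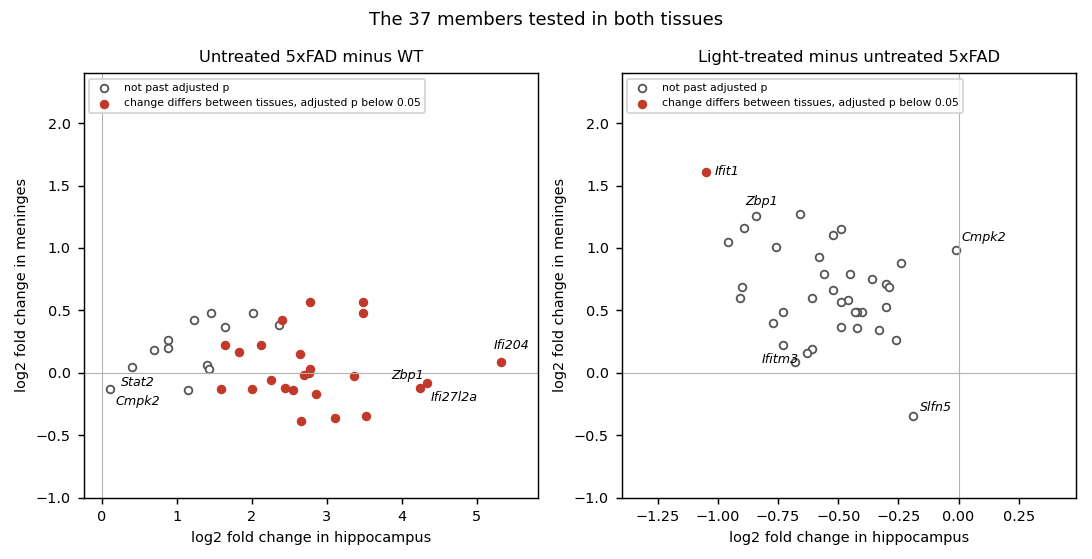
Log2 fold changes of the 37 genes tested in both tissues, hippocampus on the horizontal and meninges on the vertical axis, for untreated 5xFAD minus WT (left) and light-treated minus untreated 5xFAD (right). Filled points mark genes whose change differed between tissues at an adjusted p below 0.05; on the left the spread is along the hippocampal axis, and on the right all points but Slfn5 lie above 0 for meninges and all lie below 0 for hippocampus.

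Light-treated 5xFAD mice had the highest mean of the 3 groups in meninges for 42 of the 43 genes, but none passed the threshold. The mean order was found in 41.3% of all tested genes, and Slfn5 was the exception, at 9.16, 5.70 and 7.26 FPKM with light and 10.7, 8.85 and 10.4 without. In edgeR 0 of 43 genes passed against untreated 5xFAD mice, where 0% were called higher and 0.014% lower, with 15 higher at an unadjusted p below 0.05 (against 5.01%) and 0 lower (7.71%). The median log2 fold change was 0.60, against 0.04 for all genes. Every light-treated sample lay above every untreated sample in 14 genes, against 10.1% of all genes.

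Ifit1 had FPKM of 25.4, 23.1 and 23.7 with light, 3.63, 8.03 and 11.9 in untreated 5xFAD mice and 12.9, 10, 6.48 and 6.16 in WT mice. The light-treated values were tight and above all 7 others, with a difference from untreated mice of 1.61 ± 0.39 on the log2 scale (edgeR, adjusted p = 0.286). It was the single gene that DESeq2 called in this comparison (adjusted p = 0.0194, against 0.14% of all genes higher). In HPC the same gene was lower with light, and its 2 changes differed by 2.62 ± 0.49 (edgeR, adjusted p = 0.0217). Samd9l, an inhibitor of protein synthesis, was the other gene whose change with light differed between tissues, by 1.8 ± 0.39 (edgeR, adjusted p = 0.0385), and 0.245% of genes differed in that direction. In the opposite direction 0 of the 43 differed, against 0.806%. It was at 23.3, 7.76 and 18.7 FPKM in light-treated and 6.57, 4.62 and 13.0 in untreated meninges, which overlap, and in HPC at 0.29 to 0.41 with light and 0.61 to 1.41 without.

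The count of genes whose change with light differed between tissues rested on single mice. It was 11 without untreated meninges mouse 4 and 0 without untreated meninges mouse 2 or without light-treated HPC mouse 1. It was 1 without any one of untreated HPC mice 1, 3 and 4, light-treated HPC mice 2 and 4, untreated meninges mouse 1 and light-treated meninges mouse 4. DESeq2 called 10.

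The genes with the highest levels of their role groups in meninges differed in how far light-treated mouse 1 stood out. Isg15 was at 100, 32.7 and 37.8 FPKM with light, 20.6, 27.2 and 33.3 without and 35.4, 34.3, 28.9 and 41.1 in WT mice. Irf7 was at 29.1, 23.2 and 11.2 with light and 6.60, 12.7 and 9.39 without, and Irf9 at 20.9, 19.6 and 8.87 with light and 8.30, 11.8 and 12.9 without. In each the groups overlapped and mouse 1 was the highest with light. Ifit3 was at 86.4, 72.2 and 53.3 with light, which overlaps the untreated range given above. Zbp1 was at 41.4, 17.8 and 16.8 with light and 3.72, 13.4 and 13.4 without, and Ifitm3 at 1121, 678 and 743 with light and 589, 733 and 880 without. The GTPases were more even: Irgm1 was at 36.5, 31.5 and 28.3 with light and 12, 21.9 and 25.6 without, and Gbp2 at 41.9, 30.8 and 35.5 with light and 16.2, 19.9 and 28.8 without. For these GTPases the treated and untreated mice did not overlap. Ifi27l2a was at 564, 250 and 228 with light and 226, 246 and 224 without, Slfn2 at 41.0, 16.2 and 19.7 with light and 15.2, 29.5 and 23.6 without, and Xaf1 at 39.0, 20.2 and 18.1 with light and 16.6, 14.1 and 22.2 without. Ifih1 was at 9.75, 7.87 and 5.80 with light and 4.72, 5.30 and 5.57 without, Parp9, a partner of Dtx3l, at 9, 9.11 and 8.22 with light and 4.95, 5.83 and 7.68 without, and Ifi35 at 65.0, 39.1 and 36.1 with light and 35.5, 46.5 and 43.7 without. The light-treated mice stood above the untreated mice in Zbp1, Ifih1 and Parp9 and overlapped them in Ifitm3, Ifi27l2a, Slfn2, Xaf1 and Ifi35.

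Against WT meninges, 0 of 43 genes passed in edgeR with light (0% called higher and 0.014% lower), with 24 higher at an unadjusted p below 0.05 (against 8.13%) and a median of 0.77. DESeq2 called 4 higher, Usp18, Ifit1, Gbp7 and Samd9l, against 0.957% of all genes. Usp18 was at 18.3, 16.8 and 13.2 FPKM with light, 3.63, 9.50 and 10 in untreated 5xFAD and 6.68, 7.07, 3.86 and 3.29 in WT mice, with a difference from WT of 1.61 ± 0.37 (edgeR, adjusted p = 0.116). Gbp7 was at 12.4, 8.99 and 10.5 with light and 6.99, 6.02, 3.58 and 4.28 in WT mice, a difference of 1.01 ± 0.27. Every light-treated sample lay above every WT sample in 21 genes, against 6.99% of all genes.

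Light-treated meninges mouse 1 was the highest of its group for 38 of the 43 genes. The same library had the highest level of the neutrophil gene S100a8, 4286 FPKM, against 350 and 429 in the other 2 light-treated mice and 338 to 1670 in untreated mice. Summed neutrophil markers ranged from 560 to 6638 with light, 552 to 2717 without and 491 to 1350 in WT mice, and summed B cell markers from 33.7 to 61.9, 23.6 to 24.4 and 16.8 to 32.1. Mouse 1 was also the highest of its group for several macrophage, microglial and T and NK cell genes. Pf4 was at 398 FPKM in it, against 133 and 216 in the other light-treated mice. Tyrobp was at 646 against 330 and 294, and Nkg7 at 22.5 against 10.1 and 8.29. Other markers, such as Cx3cr1 and Cbr2, were higher in mouse 2. None of the 4 neutrophil and 4 B cell markers passed the test, nor did tested markers of border macrophages, microglia, or T and NK cells. The part of these cells in the values was not tested. Without mouse 1 the count of listed genes past the threshold was 0 as well. None of the 89 tested genes of the rest of the pathway passed in any of the 3 meningeal comparisons. Between light-treated and untreated 5xFAD mice Irf1 differed by 0.81 ± 0.27, Ifnar1 by 0.03 ± 0.25, Ifnar2 by 0.21 ± 0.23, Ifngr1 by 0.28 ± 0.29 and Ifngr2 by 0.27 ± 0.26. The ligands were untested, and Ifnb1 had a mean of 0.13 FPKM with light, 0 in untreated 5xFAD and 0.07 in WT mice.

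**Figure D4:**
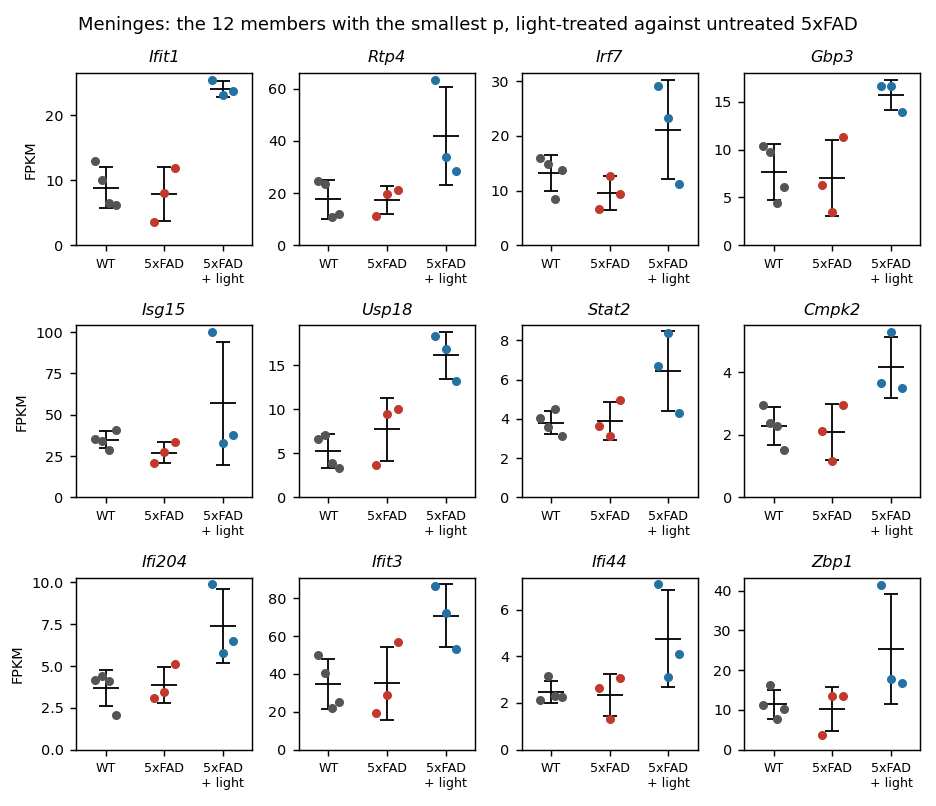
FPKM of the 12 listed genes with the smallest p between light-treated and untreated 5xFAD meninges, 1 panel a gene with its own axis from 0, where points are mice (4 WT, 3 untreated and 3 light-treated), horizontal lines means and bars SD. No gene passed the adjusted threshold; Ifit1 shows 3 light-treated mice between 23.1 and 25.4 above all others, while in Isg15 and Zbp1 mouse 1 sets the high mean.

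Sorted mLECs carried several interferon-stimulated transcripts at high levels in every library, without a group difference that passed the test. The labelled cell type was checked first. Endothelial markers were present in all 10 libraries, at summed FPKM of 744 to 2590, and the leukocyte gene Ptprc (CD45) was at 0 in all 10, as were all 5 T and NK cell markers and all 5 plasmacytoid dendritic cell markers. Markers of other cell types were present in the same libraries, with sums of 96.2 to 444 for astrocytes, 14 to 612 for leptomeningeal fibroblasts, 7.05 to 111 for microglia, 0 to 260 for oligodendrocytes, 0 to 20.2 for border macrophages and 0 to 16.5 for B cells, and their part in the levels was not tested. Lymphatic markers were uneven, at sums of 38.0 to 9718. Prox1, the master regulator of lymphatic identity, was at 0 in WT mice 1 and 2 and untreated mouse 2, and Lyve1 and Pdpn were both at 0 in WT mice 2 and 4, whose levels of the lymphatic chemokine Ccl21a were 3.54 and 0 FPKM. Pdpn was also at 0 in untreated mice 2 and 4.

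Of the 43 genes, 19 were above 0 in all 10 mLEC libraries, against 14.1% of all genes, 23 were at 0 in some, and Mx1 was at 0 in all. Ifitm3 was the highest by far, at 2659, 2833, 5215 and 2683 FPKM in WT, 4868, 3183 and 3164 in untreated 5xFAD and 6290, 4480 and 4647 in light-treated mice. It varied little between libraries and did not differ between groups past the threshold, with a log2 difference of 0.49 ± 0.33 between light-treated and untreated mice. Igtp was at 122, 102, 158 and 171 in WT, 192, 101 and 190 in untreated and 258, 153 and 199 in light-treated mice. Irgm1 was at 112, 418, 263 and 374 in WT, 283, 131 and 414 in untreated and 192, 254 and 469 in light-treated mice. The groups of both GTPases overlapped.

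Other abundant genes swung between libraries of one group. Bst2 was at 189, 0.29, 282 and 60.9 FPKM in WT, 183, 248 and 355 in untreated and 395, 120 and 213 in light-treated mice. Ifit1 was at 0.19, 296, 44.6 and 75.5 in WT, 9.80, 50.5 and 175 in untreated and 116, 43.8 and 124 in light-treated mice, and Ifit3 at 39.9, 77.6, 115 and 42.9, then 23.9, 218 and 70.1, then 304, 89.5 and 142. Within the WT group alone Bst2 and Ifit1 thus spanned a range from under 1 to over 200 FPKM, and all groups overlapped. Rtp4, a chaperone of receptors, was at 220, 49.3, 133 and 98.1 in WT, 89.9, 47.7 and 352 in untreated and 229, 323 and 31.2 in light-treated mice. Gbp2 was at 284, 177, 40.4 and 75.1 in WT, 13.5, 93.2 and 162 in untreated and 89.3, 52.5 and 47.9 in light-treated mice. The ranges of the 3 groups overlapped in both genes. Irf9 was at 48.7, 240, 39.1 and 29.2 in WT, 100, 96.4 and 62.6 in untreated and 55.4, 80.9 and 87.7 in light-treated mice. Isg15 was at 71.3, 62.1, 149 and 158 in WT, 37.7, 71.3 and 52.4 in untreated and 115, 46.2 and 47.7 in light-treated mice.

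**Figure D5:**
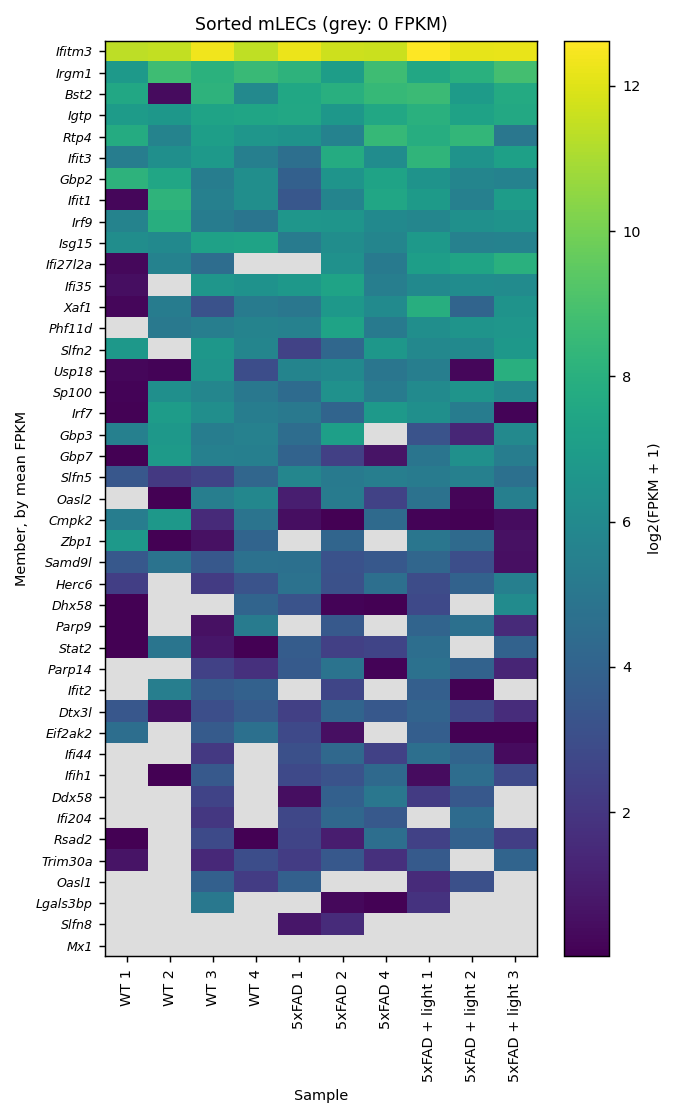
Heat map of log2(FPKM + 1) in sorted mLECs, with the 43 listed genes in order of mean FPKM as horizontal lines, the 10 libraries (4 WT, 3 untreated 5xFAD, 3 light-treated 5xFAD) side by side, and grey for 0 FPKM. Ifitm3 lies between 2659 and 6290 in every library, while Bst2 and Ifit1 fall below 1 in a single WT library each.

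In edgeR 0 of 40 tested genes passed in each of the 3 mLEC comparisons, where 0% of 8188 genes were called in the 2 comparisons with untreated 5xFAD mice and, between light-treated and WT mice, 0% higher and 0.0122% lower. At an unadjusted p below 0.05 there were 1, 1 and 2 genes for untreated against WT, light-treated against untreated and light-treated against WT. The first was higher, against 2% of genes, the second lower, against 3.19%, and of the last 1 was higher, against 2.25%, and 1 lower, against 4.47%. They were Slfn5 and Cmpk2, named after their values were seen. Slfn5 was at 9.90, 3.27, 4.87 and 17.2 FPKM in WT mice, 54.8, 35.8 and 41.0 in untreated and 37.3, 45.1 and 24.7 in light-treated mice. Both 5xFAD groups lay above WT without overlap, by 2.13 ± 0.77 and 1.87 ± 0.77 on the log2 scale (edgeR, adjusted p = 1 and 0.74). Cmpk2 was at 40.0, 105, 1.85 and 28.3 in WT, 0.41, 0.02 and 19.9 in untreated and 0.09, 0.03 and 0.37 in light-treated mice. It was the single gene that DESeq2 called, lower with light than in untreated 5xFAD (adjusted p = 0.0483, against 3.3% of genes lower) and in WT mice (adjusted p = 1.97e-05, against 4.4%), and it was near 0 in libraries of both 5xFAD groups. Both genes reached no call in edgeR when any single library was left out, when WT mice 1 and 2 with the fewest detected genes were left out, or when WT mice 2 and 4 with no Lyve1 and Pdpn were left out, the last 2 alternatives being chosen after the data were seen. None of the 58 tested genes of the rest of the pathway passed, and all 10 interferon ligands were at 0 in all 10 libraries.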

How the data were processed

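RNA-seq was made with the Smart-seq2 protocol, unstranded, from 1 mouse a sample. The authors made an expected count (estimated from the mapped reads) and an FPKM value per gene for each sample, 1 table for HPC and meninges and 1 for mLECs. The study's methods name fastp and RSEM, while the submitters' processing notes name mm10, Trimmomatic, HISAT2, StringTie and DESeq2, and how the notes map to the tables was not settled. The authors' annotation and comparison columns were not used, and 0 columns of per-sample values were set aside.

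Expected counts were rounded and fitted per tissue with edgeR 4.0.16 (R 4.3.3), TMM normalization, a quasi-likelihood test over all 3 groups and Benjamini-Hochberg adjustment over all genes that reached 1 FPKM in 3 or more samples. A fit of HPC and meninges together tested whether changes differed between tissues. DESeq2 1.42.0, limma 3.58.1 on log2(FPKM + 1), other filters, a replicate block and leaving out each sample were alternatives. Scripts were tested on simulated data. Depth is given in total counts. Samples of a tissue are separate mice, and whether samples of different tissues shared mice was not settled.

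The listed genes, the pathway and marker lists and the tests were chosen with earlier results of these data known. Named are listed genes past the threshold (the 12 with the smallest adjusted p by sample), the 1 or 2 highest of each role where none passed, the 10 highest in mLECs, and pathway genes past the threshold with Ifnb1, Ifnar1, Ifnar2, Ifngr1, Ifngr2 and Irf1; some genes of these lists are not reported here. Genes named for a count, for a call by an alternative tool or for groups that did not overlap were chosen after their values were seen.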

Additional observations from a re-analysis of the deposited data

Results flagged for a closer look

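Among 164 sets of 4 samples looked at, 1 gene in 1 group each, 9 had a sample far from the other 3 (Dixon's criterion), and chance gives about 1 in 20. In HPC these were Stat2 in WT mouse 3 (2.76 FPKM, the low end), Slfn5 in WT mouse 4 (0.88, high), Rsad2 in WT mouse 3 (0.30, high) and in untreated mouse 2 (0.58, low), and Irgm1 in WT mouse 1 (5.36, low, in a group that reached only 5.58). In meninges they were Xaf1 in WT mouse 3 (8.03 FPKM, low), Ifi204 in WT mouse 4 (2.10, low) and Samd9l in WT mouse 2 (8.09, high), and in mLECs Ifitm3 in WT mouse 3 (5215 FPKM, high).

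The change between untreated 5xFAD and WT mice differed between tissues in 28 genes by the interaction term of the edgeR fit. Given as the log2 change in meninges minus that in HPC, the antiviral effectors had -3.03 for Ifit1, -2.75 for Ifit3, -3.39 for Oasl2, -4.73 for Oasl1, -2.77 for Rsad2, -5.50 for Mx1, -4.24 for Ifi44 and -2.13 for Slfn8. Genes of signalling and of protein modification had -3.87 for Irf7, -1.90 for Irf9, -2.92 for Usp18, -3.46 for Isg15 and -1.43 for Parp9. Sensors had -1.66 for Ifih1, -4.35 for Zbp1 and -5.22 for Ifi204, and GTPases -2.56 for Gbp3, -2.31 for Igtp and -1.71 for Irgm1. Membrane, secreted and other proteins had -4.42 for Ifi27l2a, -3.04 for Bst2, -2.72 for Rtp4, -2.49 for Ifitm3, -2.70 for Lgals3bp, -3.00 for Phf11d, -2.21 for Trim30a, -2.13 for Ifi35 and -1.98 for Sp100. Values for Oasl1, Mx1, Ifi44, Ifi204 and Zbp1 depend on the prior count, since WT HPC was near 0.

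The change with light differed between tissues in Ifit1, by 2.62, and in Samd9l, by 1.8, both toward a higher value in meninges.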

How the results depend on the processing

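No call changed direction, while the uncalled median log2 fold change between untreated 5xFAD and WT mice changed sign, at -0.07 to 0.23 in meninges and -0.02 to 0.95 in mLECs over the alternatives. In HPC, the count of listed genes higher in untreated 5xFAD than in WT mice was 10 of 11 tested at a mean FPKM of at least 5, and 33 to 35 with a mouse left out. For light-treated against WT mice it was 9 of 11 and 25 to 29. For light-treated against untreated mice it was 5 with DESeq2, 0 to 3 with a mouse left out, and 3 without the 2 untreated mice highest in Ptgds, an alternative chosen after the data were seen. DESeq2 called 1 gene in meninges with light against untreated mice and 4 against WT, and 1 gene in mLECs in each of these comparisons. The count of changes between untreated 5xFAD and WT mice that differed between tissues was 18 with limma and 19 to 32 with a mouse left out, and that of changes with light was 10 with DESeq2 and 0 to 11 with a mouse left out. The cause was not tested, apart from the filter at a mean of 5, which leaves fewer genes to test. Where no share of all genes was stated above for an alternative, its count is a description. In meninges and mLECs, every count with a mouse left out was 0. Samples with the same number deviated together weakly or not at all (r of -0.24 to 0.09 over 12 pairs in HPC, -0.32 to 0.26 over 9 in meninges and -0.04 to 0.01 over 8 in mLECs). In meninges 2 of the 9 pairs exceeded 0.1. The check was made within each tissue, so whether HPC and meninges samples shared mice was not tested. With the replicate block the counts were 35, 0 and 25 in HPC, 0 in meninges and mLECs, and 23 and 1 for the differences between tissues. The small groups and the spread between mLEC libraries limit what could be called there.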
